A study of Rattus norvegicus with 12 samples.

Results

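The complement components and regulators described here are 9 genes, C1qa, C1qb, C1qc, C1r, C1s, Serping1, C3, Cfb and Cfd, matched by symbol to 1 row each among the 30452 genes of an expression table of rat cornea. They were chosen by name as components and inhibitors of the classical and alternative pathways, with no threshold on their values. Earlier results of these data were known when they were chosen, so the list is not independent of the values. RNA sequencing had been made of 12 cornea libraries, 3 in each of 4 groups. The series concerns a silk-based eye patch, SF/HA-HEP-PAM and SF/HA are taken as its patch groups from their names, Alkali-burned is the group of corneas injured with alkali, and Control is the group named only as such. None of the abbreviations SF, HA, HEP and PAM is explained by the labels, which also give no strain, age or time after injury. Whether the corneas of both patch groups had been burned is also not given. Nothing says that replicates came from separate animals, so p-values speak only of the spread among these 12 samples, which may be technical.

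Complement is a cascade of plasma and tissue proteins that marks microbes and damaged cells and calls in inflammatory cells. In the classical pathway the recognition molecule C1q binds a surface and switches on the proteases C1r and C1s, which the inhibitor encoded by Serping1 shuts off. All pathways meet at C3, and in the alternative pathway factor B (Cfb) and factor D (Cfd) build the enzyme that cleaves more C3. Liver cells are the main source of most plasma complement, C1q is made mainly by macrophages and related cells, and connective tissue cells can make C1r, C1s and the inhibitor locally.

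Values are fragments scaled to library size and to gene length (FPKM), taking the whole length of a gene from start to end with its introns, so they understate genes with long introns and are not compared between genes here. Libraries held 1245606 to 2117399 reads in SF/HA-HEP-PAM, 499061 to 957696 in SF/HA, 1173159 to 1265298 in Alkali-burned and 486264 to 1015788 in Control. Differences are on the log2(FPKM + 1) scale and were called at a limma Benjamini-Hochberg adjusted p below 0.05 over 6112 tested genes and a log2 difference above 1 or below -1. All 9 genes were tested, but C3 passed the filter (1 FPKM in at least 3 libraries) with exactly 3 libraries and Cfb with 9, none of them Control. The keratocyte and epithelial markers of cornea were present in all groups. Summed reads, scaled to a common library total (RPM), of keratocyte and fibroblast markers were 18023 to 32390 RPM in SF/HA-HEP-PAM, 40879 to 47582 in SF/HA, 34992 to 41969 in Alkali-burned and 52615 to 98177 in Control. Because these are bulk samples, fewer cells of a type and less RNA per cell cannot be told apart.

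The 9 genes stood low in Control corneas and higher in the other 3 groups (plot of all 9 genes by library). Together they took 1429 ± 282 RPM in SF/HA-HEP-PAM, 2615 ± 256 in SF/HA, 2044 ± 693 in Alkali-burned and 384 ± 91.6 in Control libraries (SD, n = 3 each). By limma's F-test, 8 of the 9 differed among the 4 groups, against 26.7% of all tested genes; C3 did not pass (adjusted p = 0.114). In Alkali-burned against Control corneas 8 of 9 rose, against 4.42% of all genes called higher. In SF/HA against Control 8 of 9 rose, against 3.19% of all genes, and in SF/HA-HEP-PAM against Control 7 of 9 rose, against 9.21%. These 3 comparisons share the Control libraries, and the 9 genes were chosen with earlier results of these data known. Cfb, counted in all 3, passed the filter on low values only through libraries outside Control.

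**Figure D1:**
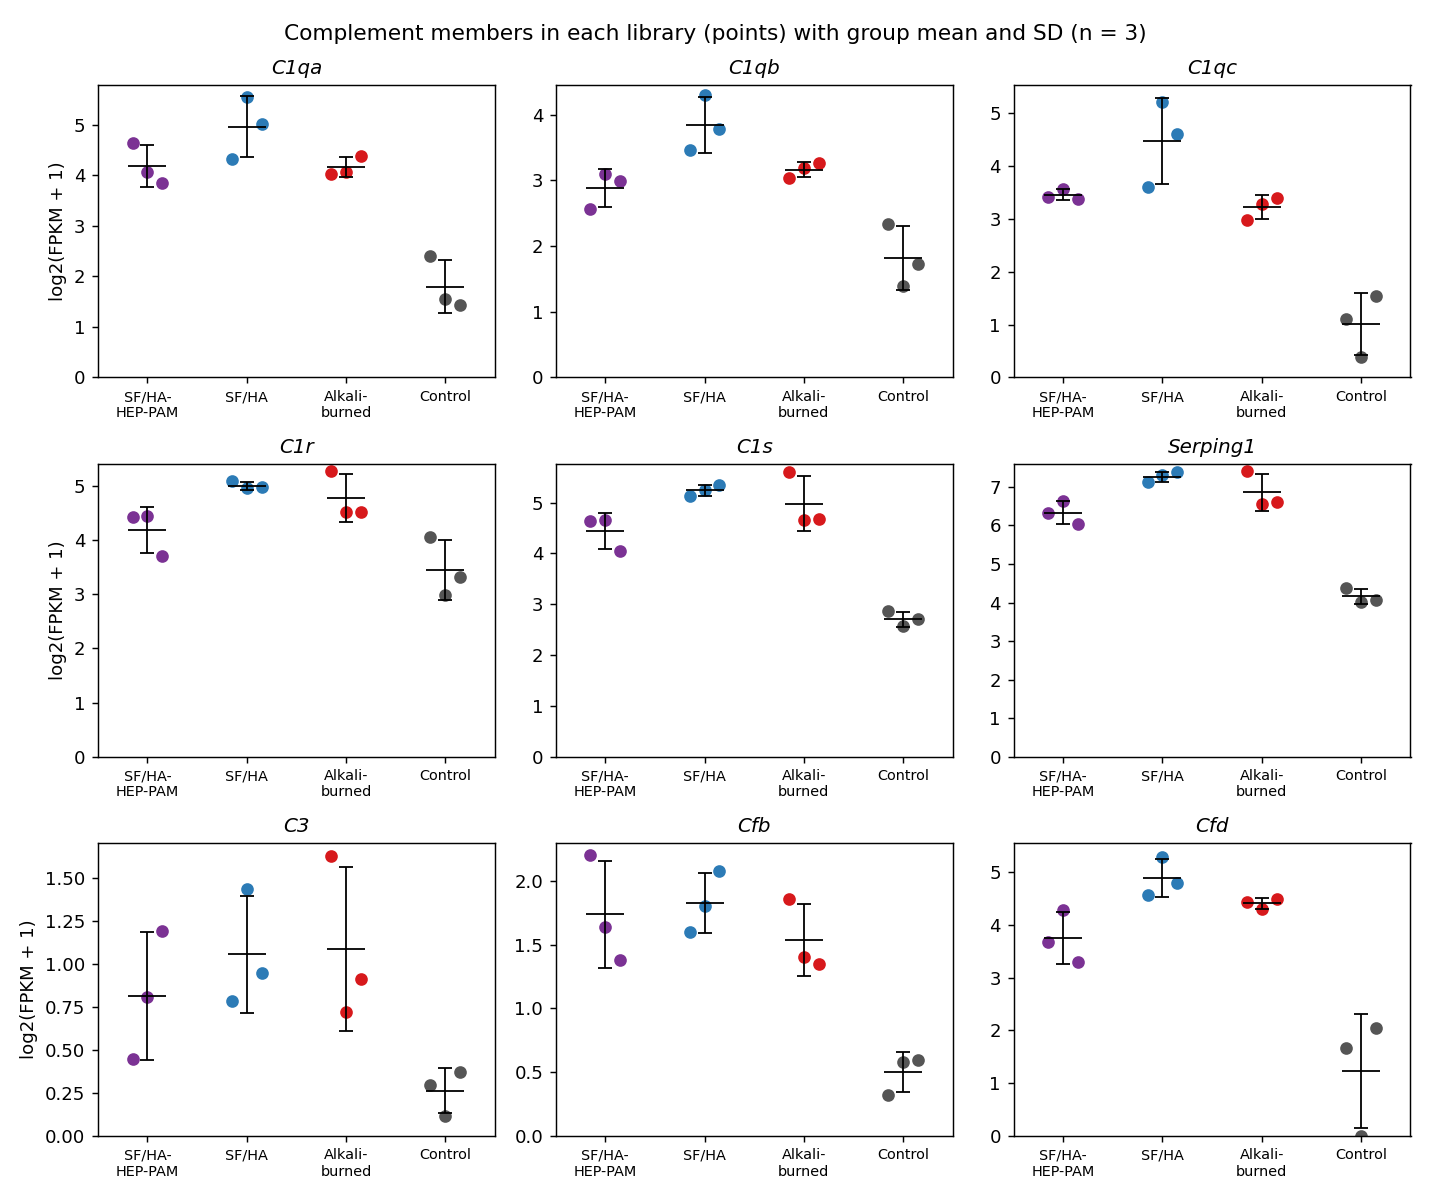
Level of each of the 9 genes as log2(FPKM + 1) on the vertical axis, by group on the horizontal axis. Points are libraries, and bars give the group mean and SD (n = 3); Control libraries sit lowest for every gene except where 1 Control library of C1r overlaps the SF/HA-HEP-PAM group.

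C1q is assembled from 3 chains encoded by C1qa, C1qb and C1qc. In the deposited annotation (mRatBN7.2) the 3 genes lie side by side on the minus strand of chromosome 5, C1qb at 149118846 to 149124407 (ENSRNOG00000012749), C1qc at 149127415 to 149131017 (ENSRNOG00000012804) and C1qa at 149133636 to 149136534 (ENSRNOG00000012807). The gaps between neighbours were 3007 and 2618 bases, and no other annotated gene overlapped them. Promoter sequence was available from RefSeq (build GRCr8) for 5 of the 9 genes, C1qa, C1qb, C1r, C3 and Cfd. The 250 bases before the start of C1qa (chr5:154419934-154420183, minus strand) and of C1qb (chr5:154407828-154408077, minus strand) are shown for the motif matches they hold. Both genes rose in all 3 comparisons with Control, as did Cfd, whose window held none of the motifs searched. Capitals mark matches to GGAAGT, an Ets-type core, on either strand, and to TTCNNNGAA, the gamma-activated type.
C1qa: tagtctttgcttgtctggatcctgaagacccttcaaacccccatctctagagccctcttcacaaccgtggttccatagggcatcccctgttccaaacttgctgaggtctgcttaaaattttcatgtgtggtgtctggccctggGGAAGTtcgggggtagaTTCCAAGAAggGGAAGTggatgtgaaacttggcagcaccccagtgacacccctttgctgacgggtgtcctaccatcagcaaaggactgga
C1qb: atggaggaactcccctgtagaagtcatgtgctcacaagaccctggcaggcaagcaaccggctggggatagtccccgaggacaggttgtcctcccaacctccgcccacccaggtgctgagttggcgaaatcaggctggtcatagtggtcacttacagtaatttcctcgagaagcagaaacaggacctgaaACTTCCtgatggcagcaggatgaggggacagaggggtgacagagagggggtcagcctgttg

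The C1qa window held GGAAGT at 107 to 102 and again at 79 to 74 bases before the start, and TTCCAAGAA at 90 to 82 bases before it. The C1qb window held the Ets core on the other strand, as ACTTCC, at 61 to 56 bases before the start. Of all 33469 promoter windows of this length, 19.2% held GGAAGT and 7.67% held TTCNNNGAA on at least 1 strand. Another motif, GAAANNGAA of the interferon-stimulated type, stood in 8.12% of windows and in none of the 5 searched here. The motifs do not overlap in these windows. They were chosen with the sequences in view, and a match is a description of letters, not a binding site.

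C1qa, the gene of the A chain, measured 23.8, 15.8 and 13.3 FPKM in SF/HA-HEP-PAM, 19.1, 45.6 and 31.3 in SF/HA, 15.3, 15.8 and 19.8 in Alkali-burned and 4.26, 1.95 and 1.70 in Control libraries. Every Control library was below all others, and SF/HA spread the widest. C1qa rose in Alkali-burned against Control corneas by a log2 difference of 2.36 (SE 0.35, limma adjusted p = 0.00312), in SF/HA against Control by 3.17 (adjusted p = 0.00082) and in SF/HA-HEP-PAM against Control by 2.39 (adjusted p = 0.00147). The Control values rest on 5 to 6 reads per library.

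C1qb, the gene of the B chain, measured 4.90, 7.56 and 6.93 FPKM in SF/HA-HEP-PAM, 9.96, 18.7 and 12.8 in SF/HA, 7.203, 8.10 and 8.57 in Alkali-burned and 4.07, 1.62 and 2.30 in Control. The 3 SF/HA libraries were above all 9 others. C1qb rose in Alkali-burned against Control by 1.34 (SE 0.27, limma adjusted p = 0.0144), a call lost without Alkali-burned replicate 3 (adjusted p = 0.0528) or without Control replicate 2 (0.0522). Its rise in SF/HA against Control was 2.03 (adjusted p = 0.00227). In SF/HA-HEP-PAM against Control it was 1.06 (adjusted p = 0.0201), and 7 of 16 alternatives, among them leaving out either SF/HA-HEP-PAM replicate 2 or 3 or Control replicate 2 or 3, ended that call.

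C1qc, the gene of the C chain, measured 9.69, 10.9 and 9.36 FPKM in SF/HA-HEP-PAM, 11.2, 36.1 and 23.5 in SF/HA, 6.86, 8.77 and 9.58 in Alkali-burned and 1.14, 0.313 and 1.91 in Control. The groups did not overlap between SF/HA and any other group, while SF/HA-HEP-PAM and Alkali-burned did. C1qc rose in Alkali-burned against Control by 2.21 (SE 0.38, limma adjusted p = 0.00747), in SF/HA against Control by 3.47 (0.00082) and in SF/HA-HEP-PAM against Control by 2.44 (0.00208). Control values rest on 1 to 7 reads per library, and with a pseudocount of 0.1 the same differences were 3.06, 4.40 and 3.31.

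Summed over the 3 chains, C1q took 123 ± 10.8 RPM in SF/HA-HEP-PAM, 255 ± 108 in SF/HA, 124 ± 15.3 in Alkali-burned and 26.5 ± 11.8 in Control (SD, n = 3 each). The sum of macrophage markers, 13 genes, was also lowest in Control. It was 763 to 823 RPM in SF/HA-HEP-PAM, 747 to 1623 in SF/HA, 777 to 953 in Alkali-burned and 224 to 273 in Control. Outside Control these sums overlapped, and in Control Adgre1 was at 0. Of the 7 markers tested, 5 rose in Alkali-burned against Control (Aif1, Lyz2, Cd14, Tyrobp and Cd68). In SF/HA against Control 5 rose (Aif1, Lyz2, Tyrobp, Ms4a7 and Fcer1g), and in SF/HA-HEP-PAM against Control 4 (Aif1, Lyz2, Tyrobp and Fcer1g). For each macrophage-marker read there were 0.135 to 0.172 C1q reads in SF/HA-HEP-PAM, 0.202 to 0.274 in SF/HA, 0.129 to 0.148 in Alkali-burned and 0.0579 to 0.174 in Control. SF/HA libraries were above all others in this ratio, and the Control range spanned that of Alkali-burned. The ratios were not tested, and the part of the macrophage markers in the C1q differences was not tested.

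C1r and C1s encode the protease pair of the C1 complex. They lie on chromosome 4 of mRatBN7.2, C1r at 157412692 to 157423484 on the plus strand (ENSRNOG00000011796) and C1s at 157430117 to 157442303 on the minus strand (ENSRNOG00000011971), 6632 bases apart with their ends facing each other. C1r measured 20.6, 20.8 and 12.1 FPKM in SF/HA-HEP-PAM, 33.2, 30.1 and 30.5 in SF/HA, 38.1, 22.0 and 22.0 in Alkali-burned and 15.6, 6.90 and 8.94 in Control. Control replicate 1 was above the lowest SF/HA-HEP-PAM library, and all SF/HA libraries were above all SF/HA-HEP-PAM libraries. C1r rose in Alkali-burned against Control by 1.33 (SE 0.31, limma adjusted p = 0.0258) and in SF/HA against Control by 1.56 (0.0156). Its SF/HA-HEP-PAM against Control difference was 0.74 (adjusted p = 0.118). The Alkali-burned call was lost in turn without Alkali-burned replicate 1 (adjusted p = 0.0872) or 3 (0.0503) and without Control replicate 2 (0.0884) or 3 (0.0774). The SF/HA call was lost without Control replicate 2 (0.0597) or 3 (0.0539), and without Control replicate 1 the SF/HA-HEP-PAM difference passed (1.05, adjusted p = 0.0295).

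C1s measured 23.7, 24.1 and 15.4 FPKM in SF/HA-HEP-PAM, 34.2, 36.8 and 39.6 in SF/HA, 47.6, 24.3 and 24.6 in Alkali-burned and 6.24, 4.91 and 5.49 in Control. All 9 libraries outside Control were above all Control libraries, and Alkali-burned replicate 1 was the highest of the 12. C1s rose in Alkali-burned against Control by 2.27 (SE 0.26, limma adjusted p = 0.000861), in SF/HA against Control by 2.53 (0.000557) and in SF/HA-HEP-PAM against Control by 1.73 (0.00165). For each C1r read there were 1.30 to 1.44 C1s reads in SF/HA-HEP-PAM, 1.16 to 1.47 in SF/HA, 1.24 to 1.41 in Alkali-burned and 0.451 to 0.803 in Control. The protease pair therefore held a different balance of reads in Control, with no overlap, although this ratio was not tested.

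Serping1 encodes C1 inhibitor, the serpin that inactivates C1r and C1s (ENSRNOG00000007457, chromosome 3, 69842739 to 69852034, minus strand). It measured 79.5, 98.2 and 64.3 FPKM in SF/HA-HEP-PAM, 138, 157 and 165 in SF/HA, 170, 93.1 and 96.1 in Alkali-burned and 19.9, 15.3 and 15.7 in Control. All SF/HA libraries were above all SF/HA-HEP-PAM libraries, and Control was far below every other library. Serping1 rose in Alkali-burned against Control by 2.70 (SE 0.24, limma adjusted p = 0.000197), in SF/HA against Control by 3.11 (0.000101) and in SF/HA-HEP-PAM against Control by 2.17 (0.000373). These calls held under all 16 alternatives run for each, as did those of C1s and C1qa.

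Inhibitor reads outran protease reads in every library outside Control, but also in Control replicate 2. For each read of C1r and C1s together there were 1.45 to 1.88 Serping1 reads in SF/HA-HEP-PAM, 1.66 to 1.89 in SF/HA, 1.60 to 1.66 in Alkali-burned and 0.756 to 1.06 in Control. The 3 groups outside Control overlapped in this ratio, and Control lay below them all (plot of C1 complex reads); the ratio was not tested. C1r and C1s together took 449 ± 114 RPM in SF/HA-HEP-PAM, 786 ± 21.7 in SF/HA, 687 ± 263 in Alkali-burned and 181 ± 57.2 in Control (SD, n = 3 each). Set against keratocyte and fibroblast markers, C1r, C1s and Serping1 gave 3.86 to 5.08 reads per 100 marker reads in SF/HA-HEP-PAM, 4.32 to 5.46 in SF/HA, 4.00 to 6.13 in Alkali-burned and 0.438 to 0.535 in Control. On this ratio, which was added after the values were seen, the 3 groups outside Control overlapped and Control stood below them. The markers it is set against fell as well. Of 9 tested, 5 were called lower in Alkali-burned against Control, 4 in SF/HA against Control and 5 in SF/HA-HEP-PAM against Control. The part of these falls in the ratio was not tested. Reads are of unlike transcripts, so a ratio compares libraries and does not give protein balance.

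**Figure D2:**
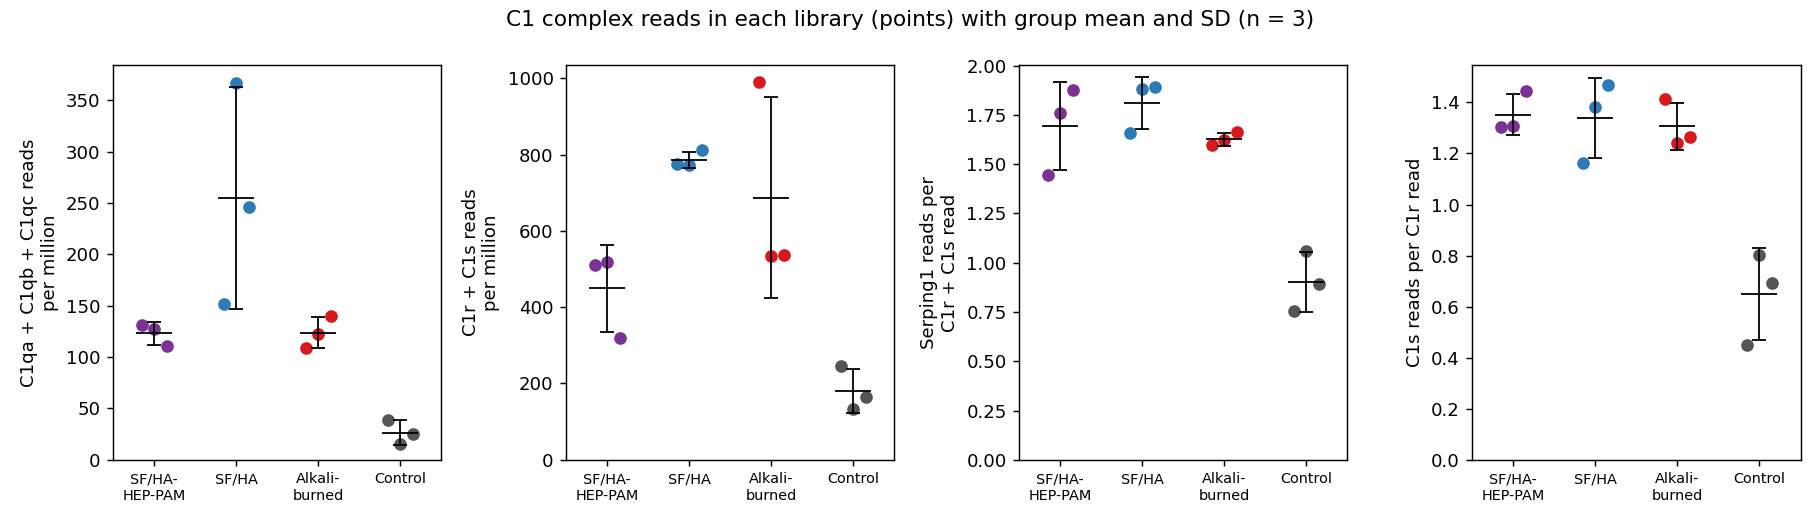
C1 complex reads by group, as RPM (reads scaled to a common library total) for the C1q chains and for C1r with C1s, then as Serping1 reads per C1r and C1s read and as C1s reads per C1r read on the vertical axes. Points are libraries and bars the mean and SD (n = 3); both read ratios are lower in the 3 Control libraries (0.756 to 1.06 and 0.451 to 0.803) than in all others.

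C3 encodes the central component that all pathways cleave (ENSRNOG00000046834, chromosome 9, 2087437 to 2114429, minus strand). It measured 0.362, 0.752 and 1.28 FPKM in SF/HA-HEP-PAM, 0.721, 1.71 and 0.928 in SF/HA, 2.08, 0.644 and 0.883 in Alkali-burned and 0.229, 0.0836 and 0.292 in Control. Every Control library was below every other library, but the other groups overlapped and were wide. The differences from Control, 0.82 in Alkali-burned (SE 0.28, limma adjusted p = 0.097), 0.80 in SF/HA (0.121) and 0.55 in SF/HA-HEP-PAM (0.184), did not pass the test. These levels lay near or under the pseudocount of 1. With a pseudocount of 0.1 the differences were 2.03, 2.00 and 1.51, and the Alkali-burned one passed (adjusted p = 0.047). In each of the other 3 groups the library highest in C3 also had the highest sum of neutrophil markers, 7 genes. These sums were 19845 RPM in SF/HA-HEP-PAM replicate 3, 17222 in SF/HA replicate 2 and 6646 in Alkali-burned replicate 1. The sum does not stand for every marker: Mmp8 had 0 reads in SF/HA, Alkali-burned and Control. Of the 7, 3 were tested and only S100a9 was called, higher in SF/HA-HEP-PAM against Control. The part of these markers in the C3 values was not tested.

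The 250 bases before the start of C3 (GRCr8, chr9:2201340-2201589, minus strand) are shown because C3 alone of the 5 windows searched held TTGCGNAA, a C/EBP-type motif. Capitals mark the match, 104 to 97 bases before the start.
C3: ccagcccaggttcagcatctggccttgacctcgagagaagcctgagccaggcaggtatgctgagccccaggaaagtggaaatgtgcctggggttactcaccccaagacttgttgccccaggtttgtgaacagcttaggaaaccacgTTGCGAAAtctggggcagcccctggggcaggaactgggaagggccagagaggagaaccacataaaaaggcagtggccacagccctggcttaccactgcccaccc
Of all 33469 windows, 0.729% held this motif on at least 1 strand.

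Cfb encodes factor B, the protease of the alternative pathway convertase (ENSRNOG00000051235, chromosome 20, 3951474 to 3976505, plus strand). In RefSeq's gene order its neighbours are C2 and Nelfe. The expression table has no row for C2, so whether the Cfb row also holds C2 reads cannot be told. Cfb measured 3.60, 2.11 and 1.60 FPKM in SF/HA-HEP-PAM, 2.03, 2.48 and 3.21 in SF/HA, 2.62, 1.64 and 1.54 in Alkali-burned and 0.246, 0.496 and 0.511 in Control. The 3 groups outside Control overlapped one another and all lay above Control. Cfb rose in Alkali-burned against Control by 1.04 (SE 0.23, limma adjusted p = 0.0203), in SF/HA against Control by 1.33 (0.00806) and in SF/HA-HEP-PAM against Control by 1.24 (0.00449). The Alkali-burned difference stood at the fold limit and lost its call in 7 of 15 alternatives, among them without Alkali-burned replicate 1 (0.88), Control replicate 1 (0.95) or Control replicate 2 (adjusted p = 0.0518). Quantile normalization took the SF/HA-HEP-PAM difference under the fold limit (0.87). With a pseudocount of 0.1 the 3 differences were 1.98, 2.39 and 2.26.

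Cfd encodes factor D, also called adipsin, the protease that cuts factor B (ENSRNOG00000033564, chromosome 7, 9813150 to 9815053, minus strand). It measured 11.7, 18.4 and 8.85 FPKM in SF/HA-HEP-PAM, 22.8, 37.9 and 26.9 in SF/HA, 20.6, 18.7 and 21.6 in Alkali-burned and 2.16, 0 and 3.10 in Control, where a count of 0 allows up to 1.78 FPKM in replicate 2. All SF/HA libraries were above the 3 Alkali-burned ones, as in 9.7% of all tested genes. All SF/HA-HEP-PAM libraries were below them, as in 21.3%, and all Control libraries were lowest. Cfd rose in Alkali-burned against Control by 3.18 (SE 0.46, limma adjusted p = 0.00296), in SF/HA against Control by 3.65 (0.00176) and in SF/HA-HEP-PAM against Control by 2.52 (0.00413). Without Control replicate 2 these were 2.56, 3.04 and 1.90, all still called, and with a pseudocount of 0.1 they were 4.50, 4.99 and 3.80. Cfd is a marker of fat cells as well. The 6 adipocyte markers summed to 6.14 to 9.08 RPM in SF/HA-HEP-PAM, 7.49 to 16.0 in SF/HA, 6.57 to 15.3 in Alkali-burned and 0.984 to 2.26 in Control. These sums rest on 5 to 18 reads per library outside Control and 1 to 2 in Control. Only 1 of the 6 markers was tested, with no call. Cidec and Lep were at 0 in every library, Adipoq was at 0 in SF/HA, Alkali-burned and Control but had reads in SF/HA-HEP-PAM, and Plin1 was at 0 in Control alone. The part of these markers in the Cfd values was not tested. Liver-derived plasma protein transcripts, 5 genes, summed to at most 3.21 RPM in SF/HA-HEP-PAM, 3.13 in SF/HA, 3.41 in Alkali-burned and 1.97 in Control.

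Counting libraries, all 3 Alkali-burned values were above all 3 Control values in 9 of 9 genes, against 19.1% of all tested genes. In SF/HA against Control the same held in 9 of 9 genes, against 12.9%, and in SF/HA-HEP-PAM against Control in 8 of 9, C1r being the exception, against 27.2%. C3 and Cfb are in these counts, although they passed the filter on low values only through libraries outside Control, which favours this order. Against Alkali-burned, all 3 SF/HA values were above in 3 of 9 genes (9.7% of all tested genes) and below in 0 (13.4%). All 3 SF/HA-HEP-PAM values were below the Alkali-burned ones in 3 of 9 genes (21.3%) and above in 0 (26.2%). The median log2 difference over the 9 genes was 2.21 in Alkali-burned against Control, where that of all tested genes was 0.06. In SF/HA against Control it was 2.53, against 0.0030 for all genes, and in SF/HA-HEP-PAM against Control it was 1.73, against 0.14. Quantile normalization moved the all-gene median of the last comparison to -0.11, and the median of the 9 genes to 1.56.

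Against the burned corneas neither patch group passed the test for any of the 9 genes. In SF/HA against Alkali-burned 0 of 9 were called, against 0.376% of all genes called higher and 2.06% called lower. At an unadjusted limma p under 0.05 there were 3, the C1q chains, as there were 1016 of all genes, with C1qc at 1.26 (SE 0.38, 95% interval 0.41 to 2.10, adjusted p = 0.118), C1qa at 0.80 (0.04 to 1.57, adjusted p = 0.278) and C1qb at 0.69 (0.08 to 1.29, adjusted p = 0.238). The C1qc difference passed without SF/HA replicate 1, the lowest SF/HA library (1.69, adjusted p = 0.0352), and with voom on reads recovered from the FPKM values (1.31, adjusted p = 0.0397). The other 6 genes lay between -0.03 for C3 and 0.48 for Cfd. The macrophage marker Tyrobp rose in the same comparison and Cd68 fell.

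In SF/HA-HEP-PAM against Alkali-burned 0 of 9 were called, against 7.38% of all genes called higher and 3.71% called lower, and 0 had an unadjusted limma p under 0.05, where 2179 of all genes did; voom on recovered reads also called 0. The differences of the inhibitor and the proteases were -0.53 for Serping1 (SE 0.24, 95% interval -1.07 to 0.01, adjusted p = 0.147), -0.54 for C1s (-1.12 to 0.03, adjusted p = 0.163) and -0.58 for C1r (-1.28 to 0.11, adjusted p = 0.21). All 3 were closer to 0 without SF/HA-HEP-PAM replicate 3, at -0.38 for Serping1, -0.34 for C1s and -0.34 for C1r. Without Alkali-burned replicate 1, the highest burned library for each, they were -0.25 for Serping1, -0.23 for C1s and -0.33 for C1r. C1qa at 0.02 (-0.75 to 0.79), C1qc at 0.23 (-0.61 to 1.08) and C1qb at -0.28 (-0.89 to 0.33) had intervals that reached both sides of 0, as did C3 at -0.27, Cfb at 0.21 and Cfd at -0.66. The intervals do not show that these genes stood alike in both groups. In the same comparison the epithelial markers Pax6, Dsp and Cdh1 and the macrophage marker Fcer1g rose and Cd68 fell. Epithelial markers summed to 29112 to 32087 RPM in SF/HA-HEP-PAM, 19030 to 25902 in SF/HA, 13538 to 21922 in Alkali-burned and 21745 to 39013 in Control. The part of these markers in the differences was not tested.

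Between the patches, all 9 differences of SF/HA-HEP-PAM against SF/HA were negative, with a median of -0.82 against 0.13 over all genes, and 0 of 9 were called, against 3.84% of all genes called higher and 0.524% called lower. Serping1 came closest, at -0.93 (SE 0.24, 95% interval -1.47 to -0.40, limma adjusted p = 0.04), past the p threshold but short of the fold limit. C1qb followed at -0.97 (adjusted p = 0.0563), C1s at -0.80 (0.0843), C1qc at -1.03 (0.121), C1r at -0.82 (0.133), Cfd at -1.14 (0.152) and C1qa at -0.78 (0.19). These 7 had an unadjusted limma p under 0.05, as did 1540 of all genes. C3 at -0.24 (-0.86 to 0.37) and Cfb at -0.09 (-0.60 to 0.43) did not. All 3 SF/HA-HEP-PAM libraries were below all 3 SF/HA libraries in 6 of 9 genes, C1qb, C1qc, C1r, C1s, Serping1 and Cfd, against 9.69% of all genes.

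Whether this comparison held any call changed with scaling, model and the leaving out of 1 library. Without SF/HA replicate 1, C1qc was called lower (-1.46, adjusted p = 0.0341). Median-of-ratios scaling called 3 genes lower, Serping1 (-1.15, adjusted p = 0.0218), C1qb (-1.15, 0.0374) and C1s (-1.01, 0.0407), and voom on recovered reads called 3 lower, C1qb (-1.04, 0.0152), C1qc (-1.06, 0.0382) and Cfd (-1.12, 0.0285). Quantile normalization called C1qb alone, at -1.15, and moved the all-gene median from 0.13 to -0.09 and that of the 9 genes to -0.93. Of all genes called in this comparison 88.0% were higher as deposited, 70.8% under quantile normalization and 64.7% once scaled by median of ratios. Beside these differences, 3 of 9 tested keratocyte and fibroblast markers fell in SF/HA-HEP-PAM against SF/HA, Dcn, Lum and Thy1, the epithelial marker Pax6 rose, and none of 7 macrophage markers was called. The part of these markers in the differences was not tested.

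**Figure D3:**
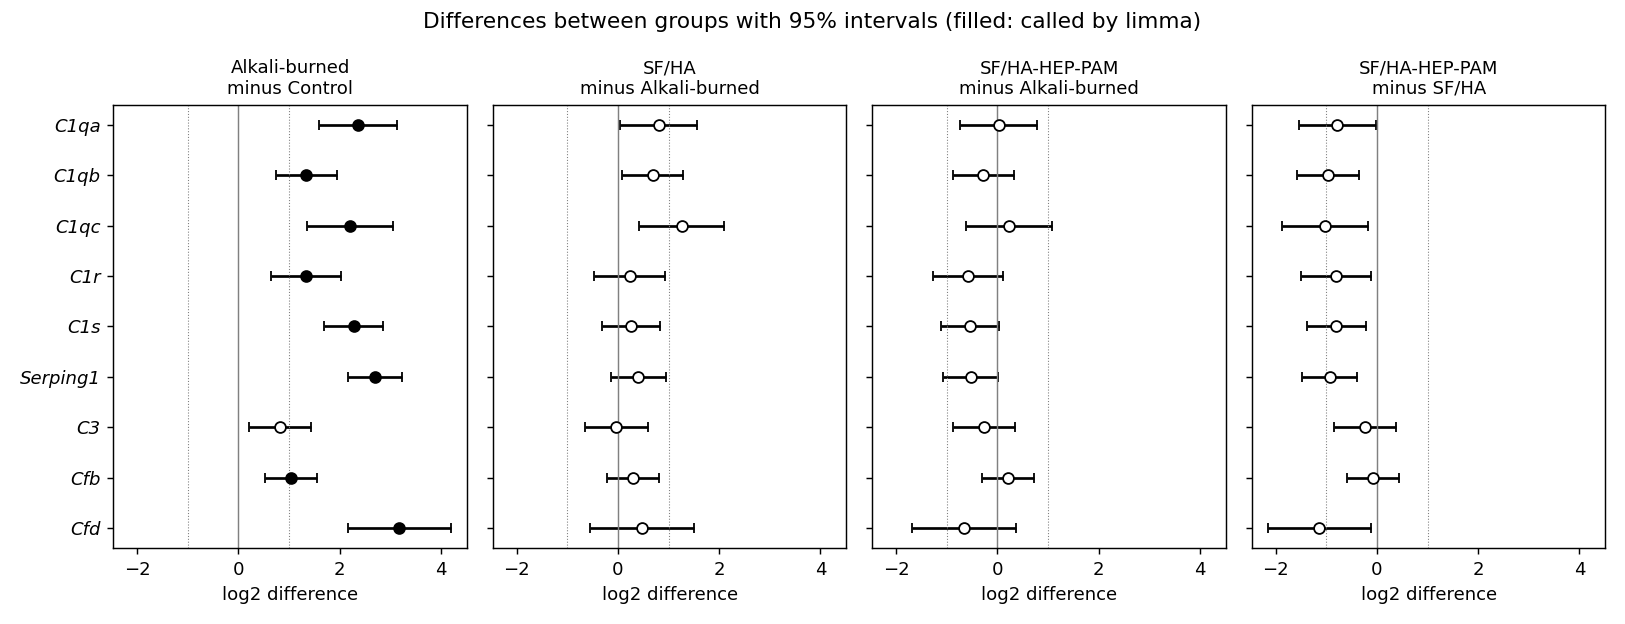
Log2 differences of the 9 genes (rows) in 4 comparisons (panels), with 95% intervals on the horizontal axis; filled points were called by limma and dotted lines mark the fold limit. The 8 filled points all stand in the comparison of Alkali-burned with Control, and all 9 points lie left of 0 in SF/HA-HEP-PAM minus SF/HA.

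Ordered by mean level, SF/HA was highest for C1qa, C1qb, C1qc, C1r, C1s, Serping1, Cfb and Cfd, Alkali-burned was highest for C3, and Control was lowest for all 9. SF/HA-HEP-PAM came above Alkali-burned for C1qa (17.6 ± 5.51 against 17.0 ± 2.49 FPKM), C1qc (9.98 ± 0.800 against 8.40 ± 1.40) and Cfb (2.44 ± 1.04 against 1.94 ± 0.597) (SD, n = 3 each). It came below Alkali-burned for the other 6, such as Serping1 (80.6 ± 17.0 against 120 ± 43.7) and Cfd (13.0 ± 4.87 against 20.3 ± 1.47). Neighbours in these orders outside Control did not differ by the test.

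Within groups, C1r, C1s and Serping1 varied together from library to library, while the C1q chains did so less evenly. After group means were removed, the Pearson correlation over the 12 libraries was 0.96 between C1s and Serping1 and 0.83 between C1r and each of them. Without the pair of libraries farthest from their group means in the first gene these were 0.83 for C1s with Serping1, 0.90 for C1r with C1s and 0.69 for C1r with Serping1. C1qb and C1qc gave 0.69, or 0.70 without such a pair, and C1qc and Cfd 0.73, or 0.88. C1qa gave 0.60 with C1qb and 0.56 with C1qc, but -0.12 and 0.21 without such a pair, so those rest on few libraries. C1s with Cfb gave 0.67, but 0.02 without such a pair. C1qc with C1s stood at 0.02. No level for gene pairs in general is given here. Values of 1 library share its depth and its mix of cells, and no test was made.

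**Figure D4:**
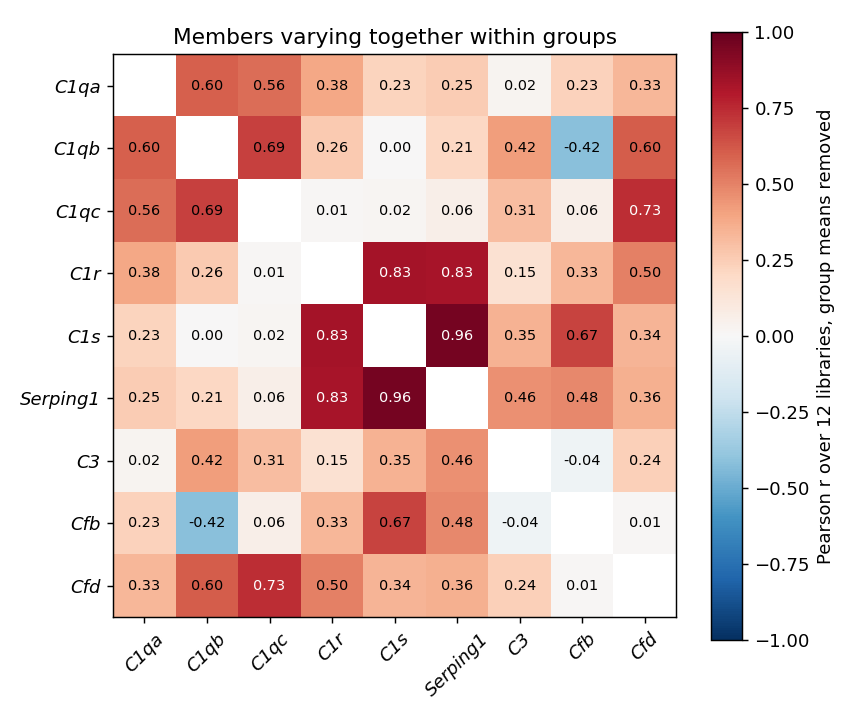
Pearson correlation of log2(FPKM + 1) for each pair of the 9 genes over 12 libraries after the group means were removed, as a colour scale from -1 to 1. C1r, C1s and Serping1 form the darkest block (0.83 to 0.96), while C1qc with C1s is 0.02.

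Over the 12 libraries as they stand, group differences included, the genes most like each member among those tested were named by Pearson correlation of log2(FPKM + 1). C1qa was most like Cd74 (0.97), C1qc and Dusp2, and C1qc most like Lyz2 (0.97), Bcl2a1 and Cd74. C1qb was most like Mt1 (0.95), Plpp3 and C1qc. Serping1 and C1s were most like each other (0.99), and each was next most like the matrix protease Mmp3 and Chi3l1. C1r was most like Apod (0.97), Efemp2 and Cpxm1, and Cfd most like Anpep (0.95), Vcam1 and Mgp. C3 was most like Glipr2 (0.93), Cxcl6 and the neutrophil gene S100a8 (0.91), and Cfb most like Adora2b (0.95), Ugdh and Isyna1. These are descriptions over libraries that share the same 4 groups.

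Other genes of the pathway were taken from a list of 43, of which 38 were in the table and 9 passed the filter on low values: C4a, Masp1, Fcna, Colec11, Clu, Cd55, Cd59, Thbd and C1qbp. C2, Mbl2, C7, Cd46 and C5ar1 were not analysed here. Of the 9 tested, 2 rose and 0 fell in Alkali-burned against Control, against 4.42% of all genes called higher. Against Control, 3 rose in SF/HA (3.19% of all genes) and 2 in SF/HA-HEP-PAM (9.21%). In SF/HA against Alkali-burned 1 fell (2.06% of all genes), in SF/HA-HEP-PAM against Alkali-burned 2 fell (3.71%) and in SF/HA-HEP-PAM against SF/HA 1 fell (0.524%), with none higher in these 3 comparisons. Their median log2 difference in Alkali-burned against Control was 0.38, where that of all tested genes was 0.06. In C4a, Fcna and Thbd no Control library reached 1 FPKM, so these passed the filter through other groups, which favours a rise against Control.

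C4a, the next component cut by C1s, measured 2.24, 2.17 and 1.17 FPKM in SF/HA-HEP-PAM, 2.82, 2.79 and 5.17 in SF/HA, 3.62, 5.23 and 5.95 in Alkali-burned and 0.717, 0.393 and 0.343 in Control. SF/HA-HEP-PAM lay below Alkali-burned without overlap, as in 21.3% of all tested genes, and Control below all. C4a rose in Alkali-burned against Control by 1.99 (SE 0.25, limma adjusted p = 0.00121) and in SF/HA against Control by 1.60 (0.00422), and it fell in SF/HA-HEP-PAM against Alkali-burned by 1.05 on the log2 scale (adjusted p = 0.0129). The SF/HA call was lost when only the libraries compared were fitted (adjusted p = 0.0528). The last call was lost without SF/HA-HEP-PAM replicate 3 (-0.87, adjusted p = 0.0571) or Alkali-burned replicate 3 (-0.93, adjusted p = 0.0551). C4a and C4b are near-identical copies, so how reads were split between them is uncertain.

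Cd59 encodes the membrane protein that blocks the terminal attack complex. It measured 19.7, 21.4 and 26.8 FPKM in SF/HA-HEP-PAM, 26.4, 19.3 and 30.4 in SF/HA, 52.0, 68.7 and 64.4 in Alkali-burned and 30.2, 44.6 and 43.9 in Control. Both patch groups were below all burned libraries, an order found in 13.4% of all tested genes for SF/HA and 21.3% for SF/HA-HEP-PAM. Cd59 fell in SF/HA-HEP-PAM against Alkali-burned by 1.41 on the log2 scale (SE 0.22, limma adjusted p = 0.00172) and in SF/HA against Alkali-burned by 1.26 (adjusted p = 0.0118), 2 comparisons that share the burned libraries. The SF/HA call was lost without Alkali-burned replicate 2 (adjusted p = 0.0636) or 3 (0.062). Against Control, Cd59 stood at 0.64 in Alkali-burned (adjusted p = 0.0994), -0.62 in SF/HA (0.122) and -0.77 in SF/HA-HEP-PAM (0.0295, below the fold limit). Cd55, which speeds decay of the convertases, stood at -0.89 in SF/HA against Alkali-burned (adjusted p = 0.0323), below the fold limit. Against Control, Cd55 stood at -0.90 in SF/HA (adjusted p = 0.0203), also below that limit, and at -0.55 in SF/HA-HEP-PAM (0.0639).

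Clu, the secreted chaperone clusterin that binds the terminal complex, averaged 30.1 ± 7.07 FPKM in SF/HA-HEP-PAM, 37.0 ± 6.40 in SF/HA, 38.8 ± 12.4 in Alkali-burned and 4.69 ± 1.07 in Control (SD, n = 3 each). All Control libraries were below all others. Clu rose by 2.78 in Alkali-burned (SE 0.25, limma adjusted p = 0.000197), 2.74 in SF/HA (0.000262) and 2.44 in SF/HA-HEP-PAM (0.000295), each against Control. Thbd, thrombomodulin, rose in SF/HA-HEP-PAM against Control by 1.22 (adjusted p = 0.0483). It passed the filter on low values only through libraries of the patch groups, and its highest Control value was 0.472 FPKM. The call rested on 6 to 22 reads per SF/HA-HEP-PAM library and 0 to 1 per Control library. It was ended by 8 of 12 alternatives, among them leaving out SF/HA-HEP-PAM replicate 1, Control replicate 2 or Control replicate 3. Fcna, a ficolin of the lectin pathway, fell in SF/HA-HEP-PAM against SF/HA by 1.11 on the log2 scale (adjusted p = 0.0291) and rose in SF/HA against Control by 1.20 (0.0221), a call that 7 of 14 alternatives ended, leaving out SF/HA replicates 2 and 3 and Control replicates 2 and 3 among them. Fcna had 1 to 11 reads per library, and 10 of 14 alternatives ended the first call, each single SF/HA library and SF/HA-HEP-PAM replicates 1 and 3 among those left out.

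Those terminal components downstream of C3 that were analysed were scarcely seen, and C7 was not analysed. C8a, C8b and C9 had 0 reads in all 12 libraries, C5 had 2 and C6 had 5 in total, and C8g had 45. Colec11, a collectin of the lectin pathway, averaged 14.4 ± 1.39 FPKM in SF/HA-HEP-PAM, 17.5 ± 1.92 in SF/HA, 14.1 ± 0.854 in Alkali-burned and 11.9 ± 1.61 in Control (SD, n = 3 each), with no call. C1qbp, a mitochondrial protein named for binding C1q, averaged 18.8 ± 3.31 FPKM in SF/HA-HEP-PAM, 19.3 ± 2.14 in SF/HA, 13.4 ± 0.0896 in Alkali-burned and 13.1 ± 2.81 in Control, also with no call. The anaphylatoxin receptor C3ar1 had 11 reads over the SF/HA-HEP-PAM libraries, 2 over SF/HA, 1 over Alkali-burned and 1 over Control. C5ar2 had 12 over SF/HA-HEP-PAM, 9 over SF/HA, 16 over Alkali-burned and 8 over Control, and neither gene passed the filter to be tested.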

How the data were processed

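RNA was measured in 12 rat cornea libraries primed with barcoded poly(dT) carrying molecular identifiers, per the labels' protocols. The authors deposited FPKM per gene. Counting used HTSeq-count per the series text but featureCounts per the submitters' processing notes, which also name bcl2fastq, fastp, STAR, DESeq2 and build mRatBN7.2. Whether molecules were collapsed is not given in the sources used here. The length column equalled the full genomic span in all 30452 genes. Another 108 lines naming no gene were left out. FPKM times length gave whole reads (largest deviation 2.42e-06), used for depth, floors (3 reads), ratios and 1 alternative fit. Floors hold for counting error alone, and the 95% intervals are limma's, from the spread among libraries.

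Tests used R 4.3.3 and limma 3.58.1 on log2(FPKM + 1), with a variance trend and 12 libraries in 1 model of 4 groups, over the 6112 genes that reached 1 FPKM in 3 or more libraries. The fit was also run on simulated data, with changes planted only in genes above a minimum of expected reads. Its outcome is not given here. Members, lists, motifs and tests were chosen with earlier results of these data known. Beside the 9 members, the named genes are the called ones and the highest of each role among the other complement genes, and the 3 most correlated with each member; Cd55 and genes with few reads were named after their values were seen. Alternatives were another pseudocount, filters, scalings, weights, voom, a replicate block and fewer libraries. Figures used Python 3.11.15 and matplotlib 3.10.9.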

Additional observations from a re-analysis of the deposited data

Results flagged for a closer look

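Serping1 passed the p threshold but not the fold limit between the patches. Its log2 difference from the burned corneas was -0.53 with SF/HA-HEP-PAM and 0.41 with SF/HA, and the difference of these, SF/HA-HEP-PAM minus SF/HA, was -0.93 (limma adjusted p = 0.04; 3 of 3 SF/HA-HEP-PAM libraries below 3 of 3 SF/HA libraries). Over its 16 alternatives the adjusted p ranged between 0.0112 and 0.163, the highest without SF/HA-HEP-PAM replicate 3, and it was above 0.05 in turn without each of the 6 patch libraries.

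Cfd lay on opposite sides of the burned corneas: all SF/HA-HEP-PAM libraries were below and all SF/HA libraries above the 3 Alkali-burned libraries. The margins were narrow. SF/HA-HEP-PAM replicate 2 stood at 18.4 FPKM (74 reads) and Alkali-burned replicate 2 at 18.7 (45 reads). On the other side, SF/HA replicate 1 stood at 22.8 and Alkali-burned replicate 3 at 21.6. That pattern of both sides was looked for in the 9 genes alone, with no share of all genes, and was not tested. Taken singly, SF/HA lay above Alkali-burned without overlap in 9.7% of all tested genes, and SF/HA-HEP-PAM below it in 21.3%. The difference between the patches was -1.14 (limma adjusted p = 0.152).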

How the results depend on the processing

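Of 837 refits of single differences of the 9 genes, 780 kept direction and side of the threshold, 29 lost a call, 14 gained one and 14 turned sign. Of 23 called differences, 15 held under every alternative run. The count called in Alkali-burned against Control was 8, and 5 to 8 when 1 library was left out, lowest without Control replicate 2. In SF/HA against Alkali-burned it was 0, with 1 (C1qc) under voom on recovered reads and 0 to 1 when 1 library was left out. In SF/HA-HEP-PAM against SF/HA it was 0, with 1 under quantile normalization, 3 under median-of-ratios scaling, 3 under voom and 0 to 1 when 1 library was left out. SF/HA against Control gave 8, but 5 when only the libraries compared were fitted (C1qb, C1r and Cfd lost). With no filter C1r lost its call there and in Alkali-burned against Control (adjusted p = 0.0696). SF/HA-HEP-PAM against Control gave 7, with 5 under quantile normalization (C1qb and Cfb lost), 6 to 8 under the other settings and 6 to 8 when 1 library was left out. Calls of other complement genes summed to 11, with 7 when only the libraries compared were fitted, 21 under voom and 8 to 12 when 1 library was left out.

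Sign turned for differences near 0: C3 in SF/HA against Alkali-burned (-0.03) was 0.068 under quantile normalization, 0.022 with library weights and -0.21 to 0.11 without 1 library. C1qa in SF/HA-HEP-PAM against Alkali-burned (0.02) was -0.0015, -0.16 and -0.048 under quantile normalization, median-of-ratios scaling and weights, and -0.21 to 0.19 without 1 library. Cfb was -0.025 to 0.38 in that comparison without 1 library, and -0.32 to 0.095 in SF/HA-HEP-PAM against SF/HA, with 0.082 when SF/HA-HEP-PAM replicate 3, SF/HA replicate 2, Alkali-burned replicate 1 and Control replicate 1 were left out together. The cause was not tested.

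Replicate numbers showed no pairing of libraries in their deviations from group means. These correlated at -0.09 to 0.15 between same-numbered libraries and at -0.10 to 0.16 between differently numbered ones. Whether samples were paired when taken cannot be told from this. With a replicate block the counts for the 9 genes stayed, against Control, at 8 for Alkali-burned, 8 for SF/HA and 7 for SF/HA-HEP-PAM and at 0 in the other 3 comparisons, and other complement calls came to 9.

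Counts over all genes moved more. Under voom 659 genes were called in Alkali-burned against Control (348 as reported), 238 in SF/HA against Alkali-burned (149), 1903 in SF/HA-HEP-PAM against Alkali-burned (678) and 809 in SF/HA-HEP-PAM against SF/HA (267). Against Control it called 421 in SF/HA (279) and 1537 in SF/HA-HEP-PAM (709). The share of called genes that were higher was 77.6% in Alkali-burned against Control (63.3% under quantile normalization), 66.5% in SF/HA-HEP-PAM against Alkali-burned (55.1%, and 50.2% under median-of-ratios scaling) and 79.4% in SF/HA-HEP-PAM against Control (57.6% and 66.7%). Low depth limits C3, Cfb, Cfd and the C1q chains, whose Control values rest on 0 to 13 reads per library.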
